A study of Mus musculus with 8 samples.

Results

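Polycomb repressive complex 2 (PRC2) is encoded by a small set of genes, and 10 of them were followed here through a mouse ESC line and secondary iPSC lines: Ezh1, Ezh2, Eed, Suz12, Jarid2, Mtf2, Phf19, Aebp2, Rbbp4 and Rbbp7. They were taken by gene symbol from the 22878 gene entries in the expression files, and each of the 10 had 1 entry in every library. All 10 passed the filter on low values, which asked that 1 or more libraries reach an FPKM of 1.

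RNA was sequenced from R1, an ESC line, and from 4 iPSC lines named 16-6, 32, S8 and T2. Of the 8 libraries in 5 lines, R1, 16-6 and 32 supplied 2 replicates apiece, while S8 and T2 were sequenced once. The question was how closely iPSCs from different germ layers match ESCs and each other. The iPSC lines were all secondary, that is, grown out of somatic cells of adult all-iPSC mice whose genome carries doxycycline-inducible Oct4, Sox2, c-Myc and Klf4. Line 16-6 came from bone marrow hematopoietic progenitors, 32 from adipocyte progenitors of inguinal fat, S8 from abdominal epidermis and T2 from the lining of the glandular stomach. R1 carries no such transgenes, so the transgenes, the genetic background and the route of derivation cannot be told apart in any comparison with R1. Each tissue of origin is represented by a single line. All lines were grown on mitomycin C-treated mouse embryonic fibroblasts with LIF, and doxycycline had been withdrawn before the colonies were picked. The sample labels give embryo as the tissue of every library, while the cells are cultured lines.

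PRC2 places methyl groups on lysine 27 of histone H3, a mark of silent developmental genes in pluripotent cells. Ezh2 or its paralogue Ezh1 is the catalytic subunit, Eed binds the mark and activates the enzyme, Suz12 holds the complex together, and Rbbp4 and Rbbp7 bind histones. Accessory subunits divide the complex into forms with either a Polycomb-like protein (Mtf2, Phf19) or Jarid2 and Aebp2, and these help it reach its sites on chromatin. In ESCs the complex can be lost without the cells dying, but such cells differentiate poorly.

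FPKM is the number of sequenced fragments per kilobase of transcript and per 1000000 mapped fragments. It allows for transcript length, so that levels of different genes can be set side by side. The fragments that the Cufflinks confidence limits imply summed to 15.5 to 16.7 per library in units of 1000000, and for the 10 genes they ranged from 138 for Phf19 to 11565 for Jarid2. The width of the limits on each side of the value was 1.86% to 4.96% of it for Jarid2, Rbbp4, Rbbp7, Mtf2, Eed, Suz12 and Ezh2, 6.57% to 10.4% for Ezh1 and Aebp2, and 12.9% to 17.0% for Phf19. These limits do not cover the spread between replicates. Their width did not follow the value alone: for Suz12 in R1 they implied 3744 fragments at an FPKM of 104 and 2200 at 109. Implied fragments are thus not read counts. The paper lists far more total reads for S8 and T2 than for the other libraries, with a lower share of them uniquely mapped. What this did to the values of S8 and T2 was not tested. Of 11 pluripotency markers found in the files, each reached an FPKM of 1 throughout. Of 16 fibroblast markers none was at 0 in any library, and their summed FPKM was 3325 and 3315 in 16-6, 1320 and 1368 in R1, 1030 in T2, 699 in S8, and 361 and 368 in 32. RNA of these markers was thus measured in every library, but only 12 and 13 of the 16 reached an FPKM of 1 in 32. The largest values in 32 were those of Fn1 (207 and 214) and Acta2 (77.6 and 78.0). The sum was highest in 16-6 and lowest in 32, although 3 of the 16 markers were lower in 16-6 than in R1.

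The stretches upstream of the start sites differed in their CpG counts and E2F motif matches. The 3 printed here belong to Ezh1, which was lower than R1 in all 4 iPSC lines, and to Suz12 and Eed, the core subunits, which were higher or lower than R1 depending on the line. Each is the 250 bases before the RefSeq start on the gene's own strand in GRCm38.p6, with letters matching a motif of the E2F family (TTTCCCGC, TTTGGCGC, TTTGCCGC or TTTCGCGC, on either strand) in capitals. E2F factors drive genes of DNA replication, which are followed further on.
Ezh1 (chr11:101226464-101226713, minus strand): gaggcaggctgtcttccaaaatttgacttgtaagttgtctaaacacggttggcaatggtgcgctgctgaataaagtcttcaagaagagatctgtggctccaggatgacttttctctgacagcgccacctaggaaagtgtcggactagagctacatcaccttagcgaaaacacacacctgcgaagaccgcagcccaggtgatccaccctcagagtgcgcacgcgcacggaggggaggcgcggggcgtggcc
Eed (chr7:89980977-89981226, minus strand): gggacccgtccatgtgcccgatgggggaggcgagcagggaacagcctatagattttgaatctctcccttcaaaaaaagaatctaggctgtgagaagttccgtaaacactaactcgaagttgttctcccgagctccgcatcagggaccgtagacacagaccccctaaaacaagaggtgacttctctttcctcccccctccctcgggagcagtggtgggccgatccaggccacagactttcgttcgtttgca
Suz12 (chr11:79992856-79993105, plus strand): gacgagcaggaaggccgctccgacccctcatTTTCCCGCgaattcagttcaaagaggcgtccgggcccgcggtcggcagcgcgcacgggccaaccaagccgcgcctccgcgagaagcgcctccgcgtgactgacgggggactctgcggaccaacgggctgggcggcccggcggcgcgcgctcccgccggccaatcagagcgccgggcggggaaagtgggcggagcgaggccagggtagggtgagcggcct

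The Suz12 window held 37 CpG dinucleotides and 1 E2F match. The Ezh1 window held 14 CpG dinucleotides and the Eed window 12, and neither held a match. Over all RefSeq windows of this length the median was 6 CpG dinucleotides, and 1.86% of the windows held an E2F match. The only other match among the 10 genes was 1 in the Phf19 window. RefSeq windows were found for all 10 genes. A match describes the letters only.

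The catalytic subunits went separate ways. Ezh2, the main methyltransferase of dividing cells, had an FPKM of 87.8 and 85.8 in R1, 64.6 and 64.4 in 16-6, 95.2 and 102 in 32, 104 in S8 and 92.4 in T2. The 16-6 libraries were the lowest and did not overlap any other line. Ezh2 fell by 0.42 on the log2 scale in 16-6 against R1 (SE 0.04, limma adjusted p = 0.00132). It was higher in 32 by 0.18 (SE 0.04, limma adjusted p = 0.0188) and in S8 by 0.26 (SE 0.05, limma adjusted p = 0.0096), while the difference of 0.09 in T2 did not pass (limma adjusted p = 0.209). The direction in 32 turned to -0.16 when library totals were set equal.

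Ezh1, the paralogue with weaker methyltransferase activity, had an FPKM of 14.4 and 13.8 in R1, 7.30 and 6.61 in 16-6, 8.71 and 8.13 in 32, 7.11 in S8 and 7.28 in T2. Both R1 libraries lay above all 6 iPSC libraries, whose values spanned a narrow range. The log2 difference from R1 was -0.93 in 16-6 (SE 0.07, limma adjusted p = 0.000505), -0.68 in 32 (SE 0.07, limma adjusted p = 0.000978), -0.90 in S8 (SE 0.08, limma adjusted p = 0.000614) and -0.87 in T2 (SE 0.08, limma adjusted p = 0.00113). Ezh1 was the only member lower in all 4 lines, against 9.28% of all genes tested. It passed the test in the same direction under every alternative run, 17 for 16-6 and for 32 and 15 for S8 and for T2. On the scale of the FPKM itself the mean of R1 was 2.03 times that of 16-6, which the pseudocount of 1 shrinks for a gene at this level. Ezh1 was low both in 16-6, where the fibroblast markers had their highest sum, and in 32, where they had their lowest. Single markers did not follow that sum. Dcn, Lum and Col3a1 were lower than R1 in all 4 lines, as Ezh1 was. Acta2 was higher in all 4, and the rest differed between lines. The part of fibroblast RNA in the Ezh1 differences was not tested.

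The balance between the paralogues moved with both genes. Ezh2 exceeded Ezh1 6.09 and 6.20 times in R1, 8.85 and 9.75 times in 16-6, 10.9 and 12.5 times in 32, 14.6 times in S8 and 12.7 times in T2. Ezh1 made up 14.1% and 13.9% of the summed FPKM of the pair in R1, and between 6.40% in S8 and 10.2% in 16-6 elsewhere. The R1 ratios were the lowest of the 8 libraries. A ratio within a library does not depend on the scaling of that library, and it is given as a description with no test.

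**Figure D1:**
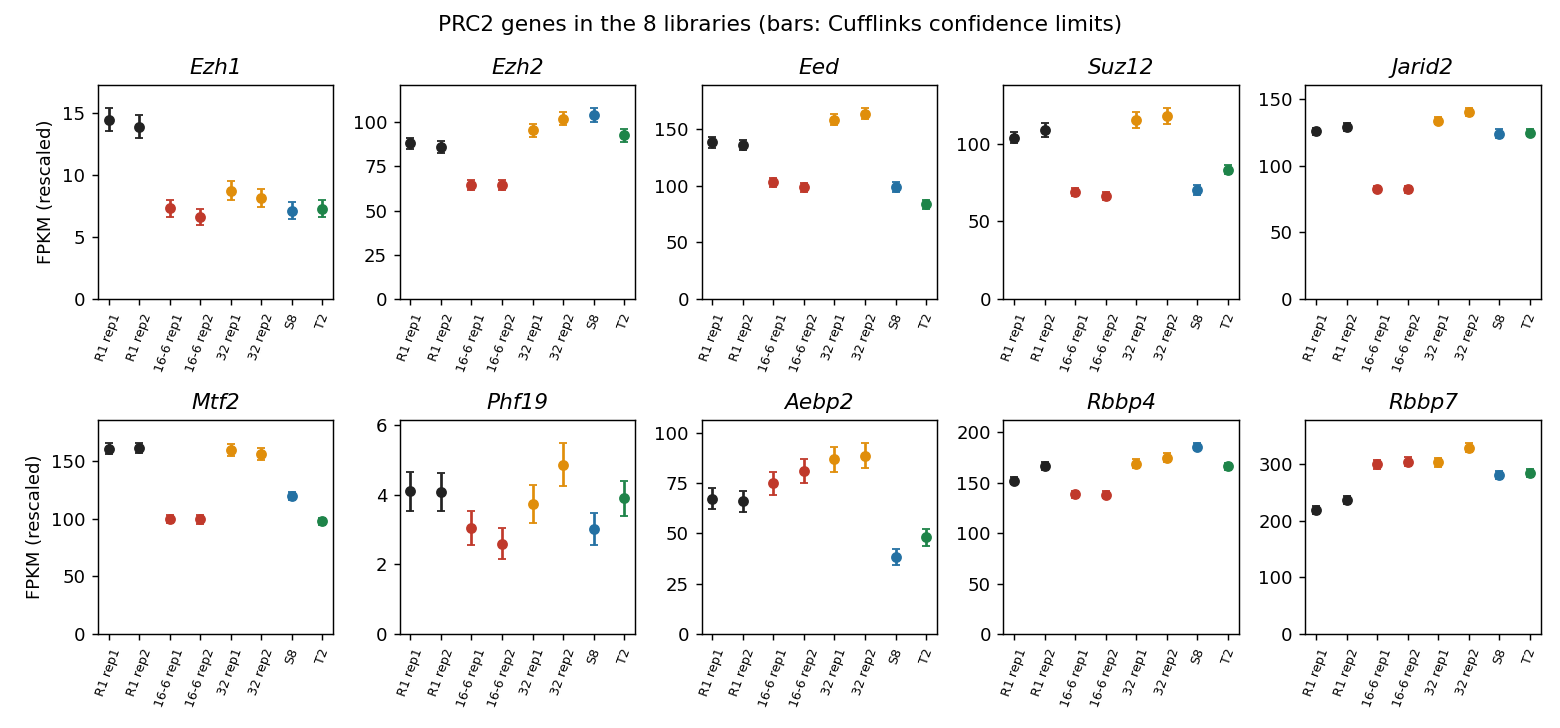
FPKM of the 10 PRC2 genes (vertical axes, each starting at 0) in the 8 libraries (horizontal axes, coloured by line), with Cufflinks confidence limits as bars. Ezh1 is highest in both R1 libraries, Ezh2, Jarid2, Suz12 and Mtf2 are low in 16-6, and Aebp2 is lowest in S8 and T2.

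Eed and Suz12, the core partners without which the enzyme is inactive, had their widest differences between iPSC lines rather than against R1. Eed had an FPKM of 138 and 136 in R1, 103 and 98.5 in 16-6, 158 and 163 in 32, 98.9 in S8 and 83.7 in T2. Suz12 had an FPKM of 104 and 109 in R1, 68.9 and 66.3 in 16-6, 115 and 118 in 32, 70.2 in S8 and 83.1 in T2. For both genes the 32 libraries were the highest, R1 came next, and 16-6, S8 and T2 lay below R1 with no overlap.

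Eed fell by 0.44 in 16-6 (SE 0.04, limma adjusted p = 0.000934), by 0.47 in S8 (SE 0.05, limma adjusted p = 0.000913) and by 0.70 in T2 (SE 0.05, limma adjusted p = 0.00052) against R1. Suz12 fell by 0.65 in 16-6 (SE 0.04, limma adjusted p = 0.000376), by 0.59 in S8 (SE 0.05, limma adjusted p = 0.000499) and by 0.35 in T2 (SE 0.05, limma adjusted p = 0.00378). These 3 lines stayed below R1 for both genes, past the threshold, in every alternative run, although the size for Suz12 in S8 came down to -0.16 and in T2 to -0.19 once GC content and transcript length were corrected for. In 32, Eed was higher than R1 by 0.23 (SE 0.04, limma adjusted p = 0.00598) and Suz12 by 0.13 (SE 0.04, limma adjusted p = 0.0426). Those directions in 32 did not hold under quantile normalization, with -0.00152 for Eed and -0.04 for Suz12, or with equal library totals, with -0.11 for Eed and -0.20 for Suz12. Part of the Suz12 transcript, 15.6%, has a copy elsewhere in the genome with at least 95% identity, so that reads there can be assigned to either.

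Jarid2, a DNA- and RNA-binding cofactor that brings PRC2 to its targets, had an FPKM of 125 and 129 in R1, 82.5 and 82.2 in 16-6, 133 and 139.9 in 32, 124 in S8 and 125 in T2. Line 16-6 stood alone below the rest. Jarid2 fell by 0.62 in 16-6 (SE 0.04, limma adjusted p = 0.000348), and the differences of 0.10 in 32, -0.04 in S8 and -0.03 in T2 did not pass. The value for S8 was 0.38 (SE 0.05, limma adjusted p = 0.000408) with the joint correction for GC content and length. The Jarid2 transcript has 49.1% GC and 5997 bases.

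Aebp2, the zinc finger subunit found with Jarid2, had the widest range of the 10 genes before the GC and length correction. Its FPKM was 67.2 and 65.9 in R1, 74.9 and 80.9 in 16-6, 86.9 and 88.7 in 32, 38.2 in S8 and 48.0 in T2. The 2 mesoderm-derived lines lay above R1 and the lines from epidermis and stomach below it. Against R1 the log2 difference was 0.22 in 16-6 (SE 0.05, limma adjusted p = 0.0137), 0.39 in 32 (SE 0.05, limma adjusted p = 0.00182), -0.78 in S8 (SE 0.06, limma adjusted p = 0.000337) and -0.46 in T2 (SE 0.06, limma adjusted p = 0.00248). The Aebp2 transcript is long and poor in GC, with 5940 bases and 42.1% GC. With the correction for both, the difference was -0.18 in S8 and -0.30 in T2, still past the threshold. In that corrected fit the widest difference of Aebp2 between lines was -0.82, in T2 against 32. That of Jarid2 was wider, 1.10 in S8 against 16-6. The lines with 1 library are also the lines from ectoderm and endoderm, so that library and germ layer cannot be told apart.

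Mtf2, a Polycomb-like protein that binds unmethylated CpG islands, had an FPKM of 161 in both R1 libraries, 99.9 and 99.3 in 16-6, 159 and 156 in 32, 120 in S8 and 97.7 in T2. Line 32 lay just under R1 and the other lines well below both. Mtf2 fell by 0.69 in 16-6 (SE 0.03, limma adjusted p = 0.00018), by 0.42 in S8 (SE 0.04, limma adjusted p = 0.000605) and by 0.71 in T2 (SE 0.04, limma adjusted p = 0.000301), and its difference of -0.03 in 32 did not pass. It had the lowest GC content of the members, 38.2%, and the difference in S8 was gone after the GC and length correction (0.02, SE 0.05, limma adjusted p = 0.765). That in T2 came to -0.52 with it. Exons of Mtf2 overlap those of Tmed5 on the other strand over 7.50% of their length, and without strand information such reads cannot be assigned. Such overlaps were also found for Rbbp4 (Sync, 8.94%, and Gm17525, 9.10%), Rbbp7 (Txlng, 5.98%), Suz12 (Gm16706, 3.6%) and Ezh2 (Gm17629, 2.81%).

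Phf19, the other Polycomb-like protein measured, was the least abundant member, with an FPKM of 4.09 and 4.07 in R1, 3.04 and 2.59 in 16-6, 3.73 and 4.86 in 32, 3.02 in S8 and 3.89 in T2. The 16-6 and S8 libraries lay below those of R1 and 32, and S8 fell between the 16-6 replicates. Phf19 passed in 16-6 (-0.41, SE 0.12, limma adjusted p = 0.0386), in 9 of 17 alternatives, and in no other line. Its test for any difference among the 5 lines did not pass (limma adjusted p = 0.0586), while the other 9 members passed, against 88.4% of all genes tested.

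The histone-binding subunits Rbbp4 and Rbbp7, which also serve in several other chromatin complexes, had the highest mean FPKM over the 5 lines among the members. Their highest line mean was 1.35 times the lowest for Rbbp4 and 1.39 times for Rbbp7, the smallest such ratios of the 10 genes, while on the log2(FPKM + 1) scale the range of Phf19 was as narrow as that of Rbbp7 (0.47 for both). Rbbp4 had an FPKM of 152 and 167 in R1, 138 in both 16-6 libraries, 169 and 175 in 32, 186 in S8 and 166 in T2. Its replicates in R1 were not close together, and T2 fell between them. Rbbp4 fell by 0.20 in 16-6 (SE 0.05, limma adjusted p = 0.0259) and was higher by 0.22 in S8 (SE 0.07, limma adjusted p = 0.0305), where quantile normalization gave -0.06. Differences of 0.11 in 32 and 0.06 in T2 did not pass.

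Rbbp7 had an FPKM of 219 and 236 in R1, 299.5 and 304 in 16-6, 303 and 329 in 32, 281 in S8 and 284 in T2. All 6 iPSC libraries lay above both R1 libraries, and the iPSC lines did not differ from their neighbours in rank. The log2 difference from R1 was 0.41 in 16-6 (SE 0.06, limma adjusted p = 0.00402), 0.47 in 32 (SE 0.06, limma adjusted p = 0.00212), 0.30 in S8 (SE 0.07, limma adjusted p = 0.0167) and 0.32 in T2 (SE 0.07, limma adjusted p = 0.017). Rbbp7 was the only member higher in all 4 lines, against 7.35% of all genes tested, and quantile normalization turned the value in S8 to -0.07. The gene is X-linked, and the median difference of the 486 X-linked genes tested lay between -0.12 in S8 and -0.03 in T2. The Y-linked genes Ddx3y, Eif2s3y and Uty were lower than R1 in all 4 lines. Eif2s3y, for example, had an FPKM of 94.5 and 88.6 in R1 and 8.25 and 8.32 in 32. Xist was lower in 32, S8 and T2 and did not differ in 16-6. The part of sex chromosome content in the Rbbp7 differences was not tested. Copies elsewhere in the genome, 2 in number, cover 85.4% of its transcript at 95% identity or more, so that its level is uncertain under unique mapping.

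Rbbp7 exceeded Rbbp4 1.44 and 1.42 times in R1, 2.16 and 2.20 times in 16-6, 1.79 and 1.88 times in 32, 1.51 times in S8 and 1.71 times in T2. The ratio of Aebp2 to Jarid2 was 0.536 and 0.512 in R1, 0.908 and 0.984 in 16-6, 0.651 and 0.634 in 32, 0.309 in S8 and 0.385 in T2. The ratio of the Polycomb-like pair, Mtf2 and Phf19, to the pair Jarid2 and Aebp2 was 0.854 and 0.85 in R1 and lay between 0.588 in T2 and 0.757 in S8 in the iPSC lines. The R1 libraries were thus at the low end of the first ratio and at the high end of the last.

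**Figure D2:**
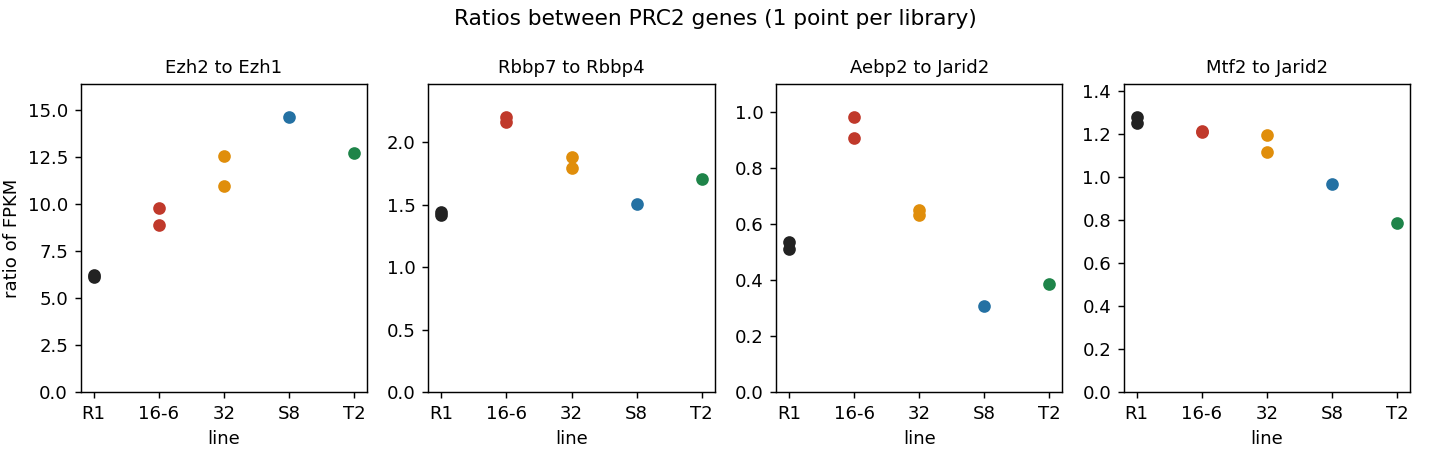
Ratios of FPKM between pairs of PRC2 genes (vertical axes from 0) in the 5 lines (horizontal axes), with 1 point per library. The Ezh2 to Ezh1 ratio is lowest in R1 (6.09 and 6.20) and highest in S8 (14.6), and the Aebp2 to Jarid2 ratio is highest in 16-6 and lowest in S8.

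Line by line, 16-6 differed from R1 in all 10 members, with 2 higher and 8 lower, where 55.6% of all genes passed the test, 25.7% as higher and 29.9% as lower. The median of the members was -0.43, and that of all genes was -0.03. Ezh1, Ezh2, Eed, Suz12, Jarid2, Mtf2 and Rbbp7 passed in all 17 alternatives, in the same direction. None of the 10 reached a 2-fold difference from R1 in any line on the log2(FPKM + 1) scale, which 7.11% of all genes did in 16-6, 9.77% in 32, 16.7% in S8 and 10.5% in T2. In 9 of the 10, all but Aebp2, the confidence limits of both 16-6 libraries lay apart from those of both R1 libraries, which held for 39.5% of all genes.

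Line 32 had 5 members higher and 1 lower than R1, and 61.5% of all genes passed, 28.6% as higher and 32.9% as lower. The higher members were Ezh2, Eed, Suz12, Aebp2 and Rbbp7, the lower was Ezh1, and the median of the members was 0.12. Aebp2, Rbbp7 and Ezh1 kept their direction in all 17 alternatives. With equal library totals, which moved the median of all genes in this comparison by -0.29, no member was higher and 5 were lower, where 55.0% of all genes were lower.

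S8 had 3 members higher, Ezh2, Rbbp4 and Rbbp7, and 5 lower, Ezh1, Eed, Suz12, Mtf2 and Aebp2, and 66.7% of all genes passed, 32.1% as higher and 34.6% as lower. T2 had 1 member higher, Rbbp7, and 5 lower, the same 5 genes as in S8, and 57.9% of all genes passed, 27% as higher and 30.9% as lower. These 2 comparisons share the R1 libraries. The confidence limits, which leave out the spread between replicates, set 9 members of S8 apart from both R1 libraries, against 60.2% of all genes. They set 6 members of T2 apart, against 53.0%. The median of the members was -0.38 in S8 and -0.20 in T2. With 1 library each, S8 and T2 were assumed to vary like the lines with replicates, so that their p-values rest on the spread within R1, 16-6 and 32.

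When the 4 iPSC lines were averaged and set against R1, 1 member was higher (Rbbp7, 0.37) and 6 were lower, where 65.0% of all genes passed, 29.9% as higher and 35.2% as lower. The lower members were Ezh1 (-0.85), Mtf2 (-0.46), Suz12 (-0.36), Eed (-0.34), Aebp2 (-0.16) and Jarid2 (-0.14). This mean hides lines that moved in opposite directions from R1. That was so for Ezh2, Eed, Suz12, Aebp2 and Rbbp4, which each passed as higher in 1 line and lower in another, as did 23.6% of all genes.

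**Figure D3:**
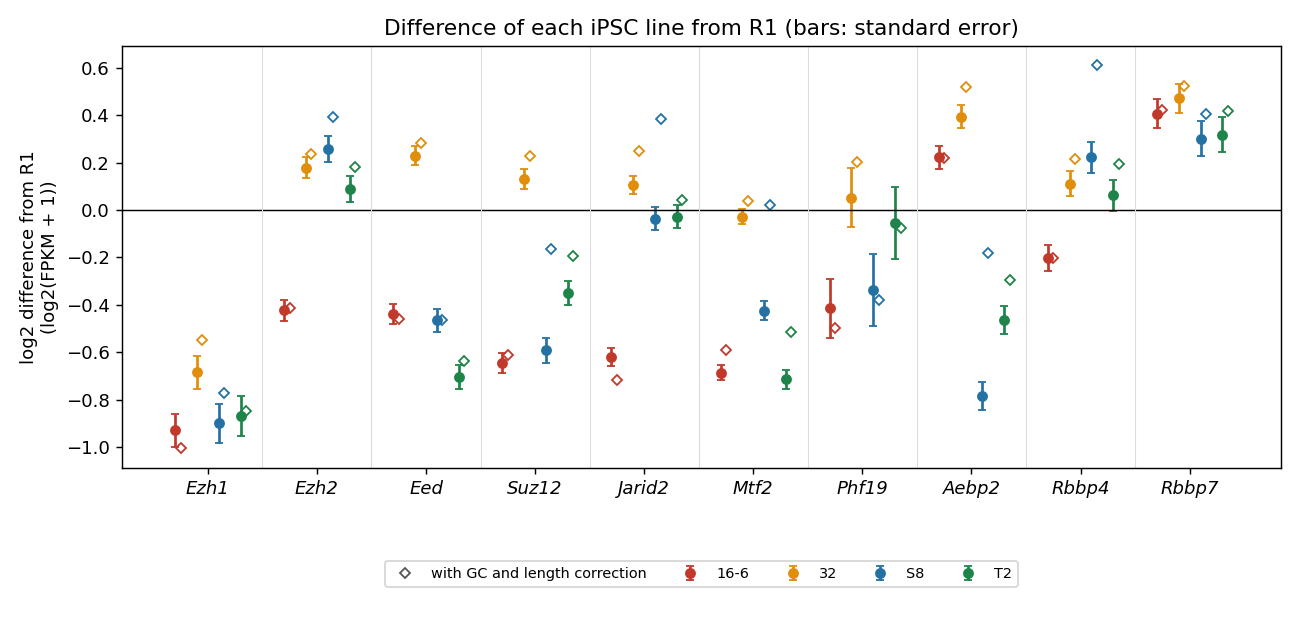
Log2 difference of each iPSC line from R1 on the log2(FPKM + 1) scale (vertical axis) for the 10 PRC2 genes (horizontal axis). Filled points with standard errors are the fitted values and open diamonds the values with the GC and length correction, which moves Aebp2 in S8 from -0.78 to -0.18 and leaves Ezh1 below R1 in all 4 lines.

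The 2 mesoderm-derived lines differed from each other in 9 of 10 members, all higher in 32, where 60.4% of all genes passed and 32.9% were higher in 32. Suz12 was higher in 32 by 0.78 (SE 0.04, limma adjusted p = 0.000129), Jarid2 by 0.72 (SE 0.04, limma adjusted p = 0.000126), Eed by 0.67 (SE 0.04, limma adjusted p = 0.00018), Mtf2 by 0.66 (SE 0.03, limma adjusted p = 9.77e-05) and Ezh2 by 0.60 (SE 0.04, limma adjusted p = 0.000319). These 5 subunits passed in all 17 alternatives. The other 4 that passed, Phf19 (0.47), Rbbp4 (0.31), Ezh1 (0.24) and Aebp2 (0.17), were less firm, and the last 3 turned to -0.02, -0.05 and -0.16 with equal library totals. The median of the members was 0.53 and that of all genes 0.06.

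T2 and S8 differed in 4 members, with Aebp2 (0.32) and Suz12 (0.24) higher in T2 and Mtf2 (-0.29) and Eed (-0.24) lower, where 34.5% of all genes passed, 17.6% as higher and 16.9% as lower. With the GC and length correction, 3 members passed, all lower in T2: Mtf2 (-0.53), Rbbp4 (-0.42) and Jarid2 (-0.34). In that fit 20.4% of all genes passed and 11% were lower, so that the number of members passing was near the share of all genes. Mtf2 was the only one of these called by both fits.

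When the 5 lines were ranked for each member, 17 of the 40 steps between neighbouring lines passed the test. All 4 steps passed for Aebp2, in the order 32, 16-6, R1, T2 and S8. For Ezh1 only the step from R1 down to 32 passed, for Jarid2 only that from S8 down to 16-6, for Ezh2 and Rbbp4 only that from R1 down to 16-6, and for Rbbp7 only that from S8 down to R1. No step passed for Phf19. The order was the same for 6 of the 10 members under median-of-ratios scaling, for 2 under quantile normalization and for 0 with equal library totals. With the GC and length correction, Aebp2 in T2 against S8 was -0.12, which reverses the last step of its order.

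Base composition and length moved with the differences of S8. Across all genes, the median difference of S8 from R1 was -0.31 in the quartile with the lowest GC content and 0.35 in that with the highest. It was 0.25 in the quartile of the shortest transcripts and -0.42 in that of the longest. In T2 the GC quartiles ran from -0.13 to 0.13. The PRC2 transcripts are mostly GC-poor, from 38.2% in Mtf2 to 53.9% in Phf19, and 6 of them lie in the lowest GC quartile. A correction of each library by GC content and length, added after these trends were seen and possible for 94.7% of the genes tested, left S8 with 4 members higher and 5 lower and a median of -0.07, where 66.0% of all genes passed. It left T2 with 3 higher and 5 lower (61.2% of all genes passed), 16-6 with 2 higher and 8 lower (61.5%), and 32 with 7 higher and 1 lower (69.0%).

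**Figure D4:**
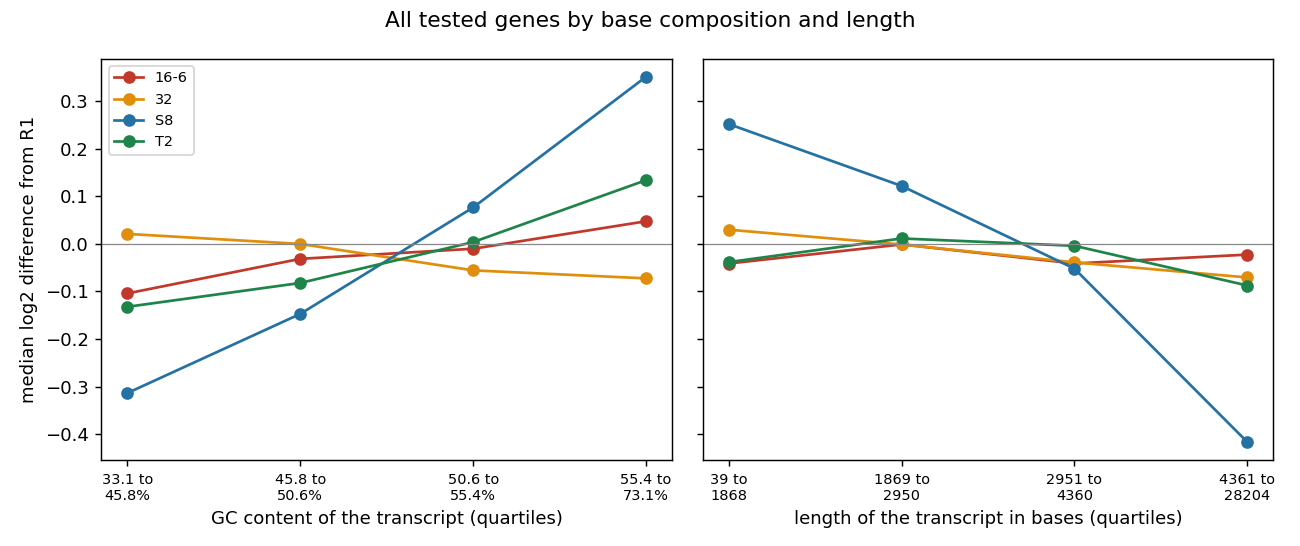
Median log2 difference from R1 over all genes tested (vertical axis) by quartile of GC content and of transcript length (horizontal axes) for the 4 iPSC lines. S8 runs from -0.31 to 0.35 with GC content and from 0.25 to -0.42 with length, while the other lines stay within a narrower band.

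Genes that work with PRC2 or that mark the state of the culture were counted from fixed lists. All 14 DNA replication and proliferation genes fell in 16-6 against R1 (median -0.42), where 29.9% of all genes fell. In 32, 10 of them were higher and 1 lower, in S8 7 were higher and 2 lower, and in T2 5 were higher and 2 lower. Of the 11 pluripotency markers, 11 fell in 16-6 (median -0.71), 3 were higher and 3 lower in 32, 2 higher and 5 lower in S8, and 2 higher and 7 lower in T2. Zfp42 (Rex1), a marker of the naive state, fell in all 4 lines. Its log2 difference was -1.92 in 16-6, -1.02 in 32, -2.18 in S8 and -2.53 in T2. Klf4 was the only other marker to fall in all 4 lines. In 32, Nanog was higher by 0.88 and the difference of -0.03 for Esrrb did not pass. Fibroblast markers mostly ran opposite to the replication genes. In 16-6, 12 of 16 were higher and 3 lower, and in 32, 15 of 16 were lower. They did not move as one in 16-6. Acta2, a smooth muscle actin, was higher by 3.83 there. It had an FPKM of 966 and 968, a large share of the sum. Genes of matrix proteins went both ways. Col1a1 (1.71), Col1a2 (1.39), Col5a1 (1.48), Postn (2.28), Fn1 (0.82) and Fbn1 (1.22) were higher. Dcn (-2.63), Lum (-2.72) and Col3a1 (-0.20) were lower, and the difference of -0.07 for Pdgfra did not pass. In 32 the difference was -6.92 for Dcn and -4.91 for Col3a1. In 16-6, 8 of the 10 PRC2 genes were low along with the replication genes and pluripotency markers, Aebp2 and Rbbp7 were higher, and the fibroblast sum was high. In bulk RNA, fewer pluripotent cells and less RNA of these genes per cell cannot be told apart.

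Against 32, all 14 replication genes and all 11 pluripotency markers were lower in 16-6, and all 16 fibroblast markers were higher. The part of the fibroblast RNA in the PRC2 differences was not tested. The fibroblast sum was lower in S8 and T2 than in R1, and Eed, Suz12, Mtf2 and Aebp2 were lower there as well, while more replication genes were higher than lower.

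**Figure D5:**
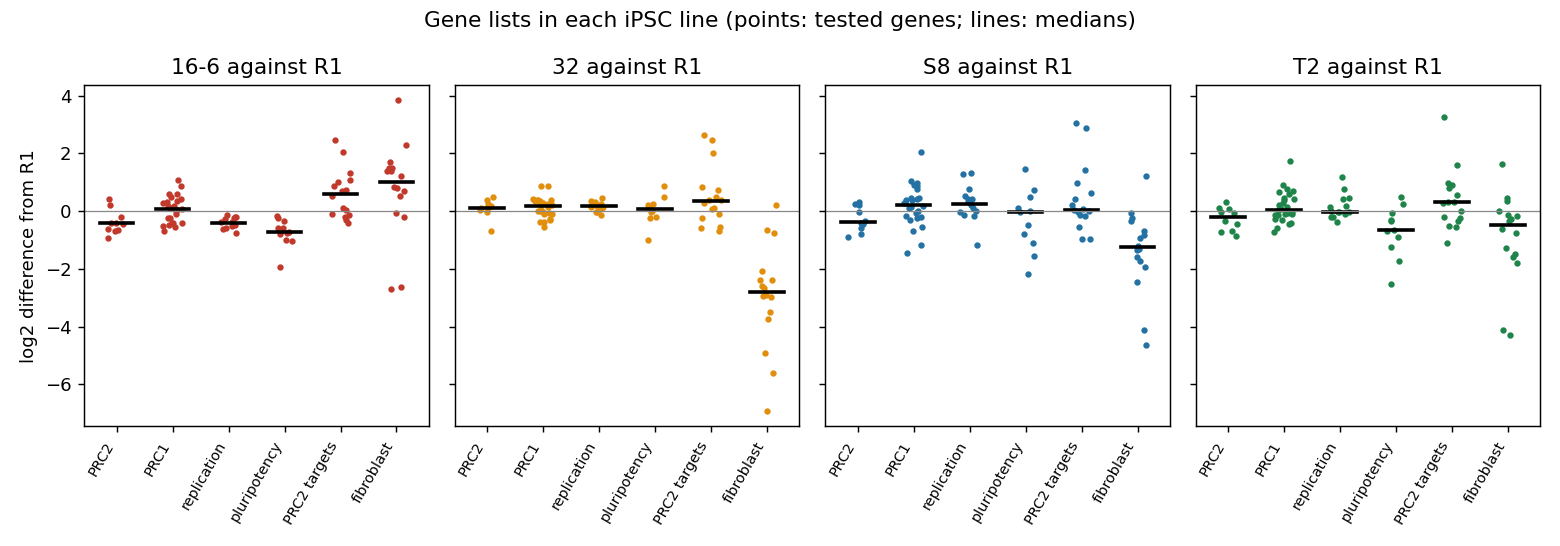
Log2 difference from R1 (vertical axis) of the tested genes of 6 lists (horizontal axis) in each iPSC line, with 1 point per gene and black lines at the medians. In 16-6 the PRC2, replication and pluripotency lists lie mostly below 0 and the fibroblast list mostly above it, and in 32 the fibroblast list is far below 0.

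Of the 5 other accessory genes of PRC2, 1 was higher and 1 lower in 16-6, 2 higher and 1 lower in 32, 2 higher and 2 lower in S8, and 1 higher and 1 lower in T2. Epop, a subunit of the Polycomb-like form that is abundant in ESCs, had an FPKM of 104 and 114 in R1, 152 and 139.7 in 16-6, 228 and 215 in 32, 285 in S8 and 178 in T2. Every iPSC library was above both R1 libraries, and the difference in S8 was 1.38 (SE 0.08, limma adjusted p = 0.000195). Lcor, whose locus also encodes a PRC2 accessory protein, was lower in S8, with a log2 difference of -1.33 (SE 0.13, limma adjusted p = 0.000772).

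The 26 genes of PRC1, the complex that reads the PRC2 mark and ubiquitinates histone H2A, moved both ways: 7 were higher and 9 lower in 16-6, 12 higher and 5 lower in 32, 13 higher and 6 lower in S8, and 11 higher and 4 lower in T2. The number that did not pass was 10, 9, 7 and 11, where 55.6%, 61.5%, 66.7% and 57.9% of all genes passed. The totals passing were thus near those of all genes. By direction they were not: PRC1 genes leaned to higher in 32, S8 and T2, where slightly more of all genes were lower than higher. This lean was not tested. Cbx2, which encodes a chromodomain protein that binds the mark, had an FPKM of 4.17 and 4.73 in R1, 7.42 and 7.05 in 16-6, 8.99 and 8.66 in 32, 21.2 in S8 and 17.1 in T2. All iPSC libraries exceeded R1, and the difference in S8 was 2.03 (SE 0.09, limma adjusted p = 0.000103). Mga (-1.46) and Phc3 (-1.18) were lower in S8 and Yaf2 (1.06) was higher in 16-6. Cbx2 is GC-rich at 57.6% and the Mga transcript is 13931 bases long.

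Of 7 tested genes for H3K27 demethylases and the H2A deubiquitinase, 2 were higher and 3 lower in 16-6, 3 higher and 1 lower in 32, and 4 higher and 3 lower in S8 and likewise in T2, with none at 2-fold. Of 18 genes of other complexes that hold Rbbp4 or Rbbp7, 5 were higher and 7 lower in 16-6, 7 higher and 2 lower in 32, 11 higher and 4 lower in S8, and 8 higher and 5 lower in T2. The 4 that reached 2-fold, Gatad2b (-1.61), Mbd3 (1.59), Chaf1b (1.09) and Mta3 (1.02), did so in S8, where 16.7% of all genes did. These values, like those of Epop, Lcor, Cbx2, Mga and Phc3 in S8, are without the GC and length correction. The shares of all genes passing in each line are given above.

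The developmental genes that PRC2 keeps silent in ESCs were mostly near 0. Of 30 such genes, 16 could be tested, and 9 were higher and 1 lower in 16-6, 8 higher and 3 lower in 32, 6 higher and 3 lower in S8, and 7 higher and 4 lower in T2. A gene passed the filter only where it reached an FPKM of 1 in some library, so these counts do not describe all 30. The filter also tilts them towards higher calls. A gene below 1 in both R1 libraries was tested only if an iPSC library reached 1. Examples are Sox1 (0.0688 and 0.182 in R1) and Cdx2 (0.0956 and 0.0936). How much of the excess of higher calls comes from this was not tested. The shares of all genes passing as higher or lower are given above for each line. The summed FPKM of all 30 was 30.8 and 31.7 in R1 and between 48.2 and 65.3 in the iPSC libraries.

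Olig2, a transcription factor of neural progenitors, had an FPKM of 0.0207 and 0 in R1, 4.75 and 4.47 in 16-6, 4.77 and 4.23 in 32, 6.33 in S8 and 8.66 in T2. It was thus near 0 in R1 and present in every iPSC library. Wt1 stood at 17.0 in S8 against 1.20 and 1.17 in R1. T and Eomes, of the primitive streak, were highest in 32 (18.8 and 17.5 for T, 14.4 and 15.3 for Eomes) and next in 16-6, whereas T was 0.578 in S8. Ezh2, Eed and Suz12 were lower than R1 in 16-6 and higher in 32, where their direction turned with equal library totals. A link between T and Eomes and the level of PRC2 genes was not tested.

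The genes whose line means were most like those of Ezh2 were Nphs1as, Slc7a3, Zcchc8, Mtmr7 and Mcm10, with root mean square differences of 0.03 to 0.04 on the log2 scale over 5 lines, among 10993 genes. For Aebp2 they were Mier3, Uap1l1, Fbxo11, Ate1 and Ercc6, at 0.05 to 0.08. Uap1l1, for example, had a mean FPKM of 17.4 in R1, 21.2 in 16-6, 24.9 in 32, 10.8 in S8 and 12.9 in T2, the order of Aebp2. Within PRC2, Ezh2 was nearest to Jarid2 (0.10) and Rbbp4 (0.10), Eed to Mtf2 (0.13), and Ezh2 and Aebp2 were farthest apart (0.59). These likenesses rest on 5 means and the same libraries, and carry no test.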

How the data were processed

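The authors sequenced paired reads from oligo(dT)-selected RNA, aligned them to mm9 by TopHat 2.0.4 with only unique matches retained, and quantified genes with Cufflinks (version 2.0.0 in the submitters' processing notes; the study's methods name another release). The deposited unit is FPKM with confidence limits; options and strand handling are not given in the sources used here. Labels gave the groups. The 8 files were joined on gene, locus and start site, and all values were divided by 12725.7, which brings the median library total to 1000000. The 13693 genes that reached an FPKM of 1 in 1 or more libraries were fitted as log2(FPKM + 1) with limma 3.58.1 (lmFit, eBayes with trend, R 4.3.3) over 8 libraries in 5 groups, with 3 residual degrees of freedom. A log2(FPKM + 1) difference understates changes of low genes. Calls had a Benjamini-Hochberg adjusted p below 0.05 over all genes. Most genes passed against R1, and p-values cover only the spread between these libraries, which may be technical. Implied fragments were (2 × FPKM / (upper limit − FPKM)) squared. Copies were searched with minimap2 2.31-r1302 (at least 95% identity over 100 bases), GC content and length came from the longest coding transcript, and figures from matplotlib 3.10.9.

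The members and gene lists were chosen with earlier results of these data known. Named genes were all 10 members, up to 4 genes with the largest difference per other list among those at least 2-fold from R1 in a line, and the 5 genes most like Ezh2 and Aebp2. Values of Phf19, Rbbp7 and genes with few fragments or copies are less certain. The fit was tested on simulated data. Alternatives were pseudocount 0.1, other filters and scalings, an untrended eBayes, single replicates left out, a replicate block, averaging 16-6 and a GC and length correction; the last 2 were added after the data were seen. Gene coordinates in the files are mm9; upstream sequences are RefSeq on GRCm38.p6.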

Additional observations from a re-analysis of the deposited data

Results flagged for a closer look

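In 5 members, 2 iPSC lines departed from R1 in opposite directions and the lines also differed from each other by the test of that difference. Ezh2 was higher in S8 than in 16-6 by 0.68 (limma adjusted p = 0.000383), and Rbbp4 by 0.43 (limma adjusted p = 0.00323). Suz12 was higher in 32 than in 16-6 by 0.78 (limma adjusted p = 0.000129). Eed in T2 against 32 had a difference of -0.93 (limma adjusted p = 0.000369), and Aebp2 in S8 against 32 had a difference of -1.18 (limma adjusted p = 0.000202). S8 and T2 rest on 1 library each, and R1, 16-6 and 32 on 2. In 32, Eed turned to -0.106 and Suz12 to -0.203 against R1 with equal library totals, both turned below 0 under quantile normalization, and Suz12 passed in 7 of 17 alternatives, as lower in that with equal totals. Rbbp4 in S8 was -0.0611 under quantile normalization and passed in 9 of 15 alternatives. Opposite directions from R1 were found for 23.6% of all genes.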

How the results depend on the processing

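The number of members passing the test stayed within 1.5 times in most alternatives. When a 2-fold difference was also required, 0 members passed in each of the 7 comparisons. With library totals set equal, 5 members passed in S8 against R1 (0 higher, 5 lower), 2 in S8 against T2, and 11 steps in the order of the lines, and the median of all genes moved by -0.11 in S8 against R1, 0.10 in T2 against R1, -0.27 in 32 against 16-6 and 0.21 in T2 against S8. The GC and length correction moved it by 0.15 in 32 against 16-6. In S8 against T2, 2 members passed without a trend in eBayes and 2 with 16-6 averaged as 1 sample, and leaving out 1 replicate at a time gave 2 to 4, with 2 only when a 16-6 replicate was left out. The cause was not tested.

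Directions reversed as follows. In 32 against R1, equal totals gave -0.156 for Ezh2, -0.106 for Eed, -0.203 for Suz12, -0.231 for Jarid2, -0.216 for Phf19 and -0.225 for Rbbp4. Quantile normalization gave -0.00152 for Eed, -0.0412 for Suz12, -0.111 for Jarid2 and -0.105 for Rbbp4. The GC and length correction gave 0.0386 for Mtf2, and leaving out 1 replicate of 32 left Phf19 between -0.103 and 0.207. In S8 against R1, the correction gave 0.385 for Jarid2 and 0.0192 for Mtf2, and quantile normalization -0.0611 for Rbbp4 and -0.072 for Rbbp7. In T2 against R1, equal totals gave 0.0935 for Jarid2 and 0.0427 for Phf19, the correction 0.0441 for Jarid2, and quantile normalization 0.0709 for Phf19 and -0.00873 for Rbbp4, which lay between -0.00169 and 0.127 when 1 replicate was left out. For the mean of the iPSC lines, quantile normalization gave -0.0776 for Ezh2, 0.00878 for Phf19 and -0.111 for Rbbp4, equal totals -0.063 for Ezh2 and -0.0404 for Rbbp4, the correction 0.0659 for Aebp2, and leaving out 1 replicate put Rbbp4 between -0.016 and 0.113. In 32 against 16-6, equal totals gave -0.0494 for Ezh1, -0.158 for Aebp2, -0.0179 for Rbbp4 and -0.268 for Rbbp7, and for Rbbp7 quantile normalization gave -0.132 and median-of-ratios scaling -0.0258. In T2 against S8, quantile normalization gave -0.0603 for Ezh1 and 0.0524 for Rbbp4, the correction -0.075 for Ezh1, -0.0301 for Suz12, -0.34 for Jarid2 and -0.116 for Aebp2, and equal totals 0.0903 for Ezh2, 0.0183 for Eed and 0.0987 for Rbbp4.

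A replicate block was fitted to the 6 libraries of R1, 16-6 and 32. It gave 9 members in 16-6 against R1, 5 in 32 against R1 and 9 in 32 against 16-6, where the same libraries without the block gave 10, 6 and 9. The correlations of same-numbered replicates were -0.0969, 0.00102 and 0.0282, so that the numbers did not pair the samples.

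Some calls were lost when 1 library was left out, with the log2 difference given here in the order of the libraries named and all limma adjusted p between 0.0505 and 0.166. In 16-6 against R1, Phf19 was lost without either 16-6 replicate (-0.50, -0.33) and without either R1 replicate (-0.41, -0.42), Rbbp4 without either 16-6 replicate (-0.20 in both) and without R1 replicate 2 (-0.14), and Aebp2 without 16-6 replicate 2 (0.17) and R1 replicate 2 (0.21). In 32 against R1, Suz12 was lost without either 16-6 replicate (0.13 in both), either 32 replicate (0.15, 0.12) and R1 replicate 1 (0.10), and Ezh2 without 32 replicate 2 (0.13) and either R1 replicate (0.19, 0.16). In S8 against R1, Rbbp4 was lost without either 16-6 replicate (0.22 in both) and R1 replicate 1 (0.16), and Rbbp7 without R1 replicate 1 (0.25), as was Rbbp7 in T2 (0.27). For the mean of the iPSC lines, Aebp2 was lost without either R1 replicate (-0.14, -0.17) and Jarid2 without R1 replicate 2 (-0.13). In 32 against 16-6, Phf19, Ezh1 and Aebp2 were each lost without either R1 replicate (0.47, 0.24 and 0.17), Phf19 also without either 16-6 replicate (0.55, 0.38) and 32 replicate 2 (0.31), Ezh1 without 16-6 replicate 2 (0.18) and either 32 replicate (0.20, 0.29), and Aebp2 without 16-6 replicate 1 (0.12) and either 32 replicate (0.19, 0.16). In T2 against S8, Suz12 was lost without any 1 of the 16-6 or 32 libraries (0.24) and Eed without either 16-6 replicate (-0.24). Calls were gained for Phf19 in S8 without either 32 replicate (-0.34) and for Rbbp4 in 32 without R1 replicate 2 (0.18).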
